A study of Mus musculus with 2 samples.

Results

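The 9 genes of the B cell receptor and its nearest signalling steps were followed in mouse A20 tumours: Cd79a, Cd79b, Ms4a1, Cd22, Lyn, Blk, Syk, Btk and Blnk. They were chosen by symbol as a textbook set, with earlier results of these data known. All 9 were found among the 28692 genes of the count matrices. Libraries for single-cell RNA-seq had been made from subcutaneous A20 tumours 8 h after treatment. The treatment was TAK-981, given intravenously at 7.5 mg/kg (1 library), or its vehicle, 20% HPbCD, a cyclodextrin (1 library). TAK-981 is a small-molecule blocker of SUMO activation, the first step by which the modifier SUMO is joined to other proteins. All hosts were Balb/c mice that had received 1000000 A20 cells each in the left flank, and were dosed once their tumours had reached some 300 mm3. Dead cells were removed before capture with the 10x Genomics 5′ kit. A20 is a single B lymphoma line of Balb/c origin, so the tumour cells stand for 1 lymphoma, and the host keeps its own B cells, T cells and myeloid cells. The labels do not say how many mice each library came from.

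The B cell receptor is a membrane immunoglobulin paired with the CD79A and CD79B chains, whose cytoplasmic tails are phosphorylated when antigen binds. The Src-family kinases LYN and BLK place the first phosphates, SYK docks on them, and the adaptor BLNK then brings BTK to phospholipase C, which leads to calcium release and to NF-kB and NFAT activity. CD22 damps the signal through phosphatases that LYN helps to recruit, and CD20, the product of Ms4a1, is a surface protein of mature B cells and the target of antibodies used against lymphoma. SYK and LYN also work in macrophages and monocytes, downstream of Fc receptors and of related receptors.

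The TAK-981 library held 2396 barcodes with a median of 11840.5 UMIs (unique molecular identifiers, each counting 1 captured transcript), and the vehicle library held 2579 barcodes with a median of 19608 UMIs. A20 cells were taken as barcodes with at least 2 UMIs in the sum of Cd79a, Jchain and Mzb1, none of Cd3d, Cd3e, Cd3g and Lyz2, and under 10% mitochondrial UMIs, which left 1884 TAK-981 and 2300 vehicle cells. Their median depth was 15235 UMIs with TAK-981 and 21455 UMIs with vehicle. The 10% limit removed 15.7% of barcodes with TAK-981 and 4.81% with vehicle. The label of the A20 cells held up on markers the gate did not use: a Cd74 UMI was seen in 99.8% of TAK-981 and 100% of vehicle cells, and an H2-Aa UMI in 97.8% and 99.5%. Of the A20 cells, 11 with TAK-981 and 24 with vehicle held a UMI of Xist, against 84.1% and 90% of T cells (at least 2 UMIs of Cd3d, Cd3e and Cd3g together, none of Lyz2, the same mitochondrial limit, 44 TAK-981 and 60 vehicle cells). There were 11 barcode sequences common to both libraries. With 1 library per treatment there is no test between treatments, and every interval given is a 95% interval for counting error alone. Intervals are exact, except that those for genes seen together hold the product of the single shares fixed.

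At 8 h after TAK-981, the 9 genes stood close to their vehicle levels in A20 cells. Levels are UMIs of a gene per 10000 UMIs of all A20 cells in a library, a ratio is TAK-981 over vehicle, and a gene was called at a ratio of at least 1.5 in either direction. None of the 9 was called, where 5.86% of the 10672 genes with at least 50 UMIs were called, 4.74% higher and 1.12% lower in the TAK-981 library. The ratios of the 9 lay between 0.898 for Cd79b and 1.29 for Cd22, with a median log2 ratio of 0.09 beside 0.05 over all genes tested. Intervals lay wholly above 1 for 3 genes (Cd79a, Ms4a1 and Cd22), wholly below 1 for 1 gene (Cd79b), and included 1 for the other 5. Over all genes tested, 51.1% of intervals included 1.

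**Figure D1:**
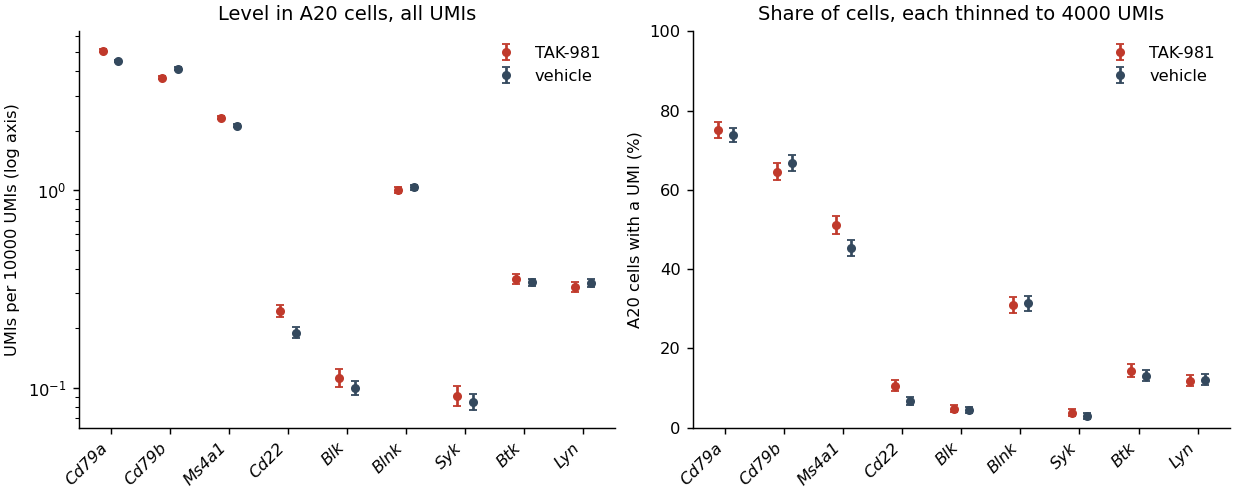
Levels (left, UMIs per 10000 UMIs, log axis) and shares of A20 cells with at least 1 UMI after each cell was thinned to 4000 UMIs (right, percent) for the 9 genes in the TAK-981 and vehicle libraries. Bars are exact 95% counting intervals, and the order of the genes by level is the same in both libraries, with Cd79a highest (5.08 and 4.52) and Syk lowest (0.0907 and 0.0850).

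The signalling chains of the receptor gave the most UMIs and differed in opposite directions by small amounts. Cd79a (ENSMUSG00000003379) stood at 5.08 UMIs per 10000 in TAK-981 and 4.52 in vehicle A20 cells, from 17103 and 24459 UMIs, a ratio of 1.13 (1.10 to 1.15). Cd79b (ENSMUSG00000040592) stood at 3.70 in TAK-981 and 4.12 in vehicle A20 cells, a ratio of 0.898 (0.879 to 0.918). The median cell held 4.06 UMIs of Cd79a per 10000 with TAK-981 and 3.75 with vehicle, and the cells ranged from 0 to 44.7 and from 0 to 59.8. The cells of the 2 libraries thus overlapped over nearly their whole range. Cd79a is 1 of the 3 genes of the gate, but a gate on Jchain and Mzb1 alone kept 1872 and 2294 cells and left 0 members called. A Cd79a UMI was seen in 92.9% of TAK-981 and 95.2% of vehicle A20 cells, and, once each cell was thinned to 4000 UMIs, in 75.2% and 73.9%, so the order of the shares turned with depth. Thinned shares of Cd79b were 64.6% in TAK-981 and 66.7% in vehicle cells. Among cells of 10000 to 20000 UMIs the thinned share, TAK-981 minus vehicle, was 3.72 percentage points for Cd79b, beside -2.14 over all A20 cells, and 4.21 for Cd79a, beside 1.34. T cells, which should lack both genes, held a Cd79a UMI in 18.2% of TAK-981 and 13.3% of vehicle cells at the same thinned depth, and a Cd79b UMI in 9.09% and 16.7%. From all UMIs the T cell level of Cd79a was 1.24 and 1.495 per 10000, and T cells had median depths of 6927 (TAK-981) and 9068 UMIs (vehicle). Of the T cells, 9 of 44 with TAK-981 and 13 of 60 with vehicle held at least 2 gate UMIs and were kept. The richest 5% of T cells held 61.1% and 48.1% of the Cd79a UMIs, so T cell values are not a clean background.

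Genes of immunoglobulin chains differed more. Ighm stood at 3.67 UMIs per 10000 in TAK-981 and 2.08 in vehicle A20 cells, a ratio of 1.76, and Igkc at 2.70 and 1.95, a ratio of 1.38. The gamma chains Ighg2c and Ighg2b had ratios of 1.95 (1.86 to 2.05) and 2.63 (2.34 to 2.95). The gamma constant-region genes have near-identical relatives, so the single values of Ighg2c and Ighg2b are uncertain. UMIs of the heavy-chain genes do not show which heavy chain pairs with the CD79 proteins in A20 cells.

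Of the surface co-receptors, Ms4a1 (ENSMUSG00000024673) stood at 2.33 UMIs per 10000 in TAK-981 and 2.12 in vehicle A20 cells, a ratio of 1.10 (1.07 to 1.13). Its thinned share was 51.1% of TAK-981 cells, with an interval of 48.8% to 53.4%, and 45.3% of vehicle cells, with an interval of 43.3% to 47.4%. T cells showed 9.09% and 13.3%. The A20 intervals do not overlap, and the difference of 5.81 percentage points was the widest of the 9 genes. The unthinned shares stood in the other order, at 78.2% and 80.3%. Single cells reached 50.2 UMIs of Ms4a1 per 10000 with TAK-981 and 96.1 with vehicle, against medians of 1.58 and 1.40.

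Cd22 (ENSMUSG00000030577), the inhibitory co-receptor, had the highest ratio of the 9. Its level was 0.245 UMIs per 10000 in TAK-981 and 0.190 in vehicle A20 cells, from 823 and 1028 UMIs, a ratio of 1.29 (1.17 to 1.41). Most cells held none: the thinned share was 10.5% in TAK-981 and 6.74% in vehicle cells, and the 5% of cells richest in it held 40.8% and 41.4% of its UMIs. With every cell thinned to 4000 UMIs the ratio was 1.66 (1.36 to 2.03), which passed the call, where 8.35% of the 9055 genes tested at that depth did, 7.44% higher and 0.906% lower. T cells held 0 UMIs of Cd22 in the TAK-981 library, where a floor of 3 counts allows up to 6.82% of the 44 cells to hold a UMI and sets no limit on cells that express the gene, and 11 UMIs in 5 of 60 cells in the vehicle library, a level of 0.128.

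The Cd22 ratio varied with the depth of the cell. A20 cells of both libraries were cut together by UMI total into 4 classes of like cell number, at 10092.75, 18326 and 29034.25 UMIs. In the lowest class, with 600 TAK-981 and 446 vehicle cells, Cd22 stood at 0.418 and 0.231 UMIs per 10000, a ratio of 1.81 (1.38 to 2.39). The next classes gave 1.37 and 1.41, and the highest, with 315 TAK-981 and 731 vehicle cells, gave 0.871 (0.737 to 1.03). Ms4a1 ran likewise at 1.38, 1.09, 1.16 and 0.981, and Cd79b at 0.974, 0.983, 0.925 and 0.851. The interval of each kinase gene and of Blnk included 1 in the lower 3 classes. In the deepest class Lyn gave 0.844 (0.741 to 0.961) and Blnk 0.927 (0.865 to 0.993), and the intervals of Blk, Syk and Btk included 1. Cd22 thus stood higher in TAK-981 cells in 3 of the 4 depth classes, and lower in the deepest, where the interval included 1. With the mitochondrial limit at 5% in place of 10%, the log2 ratio of Cd22 was 0.22, beside 0.37.

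**Figure D2:**
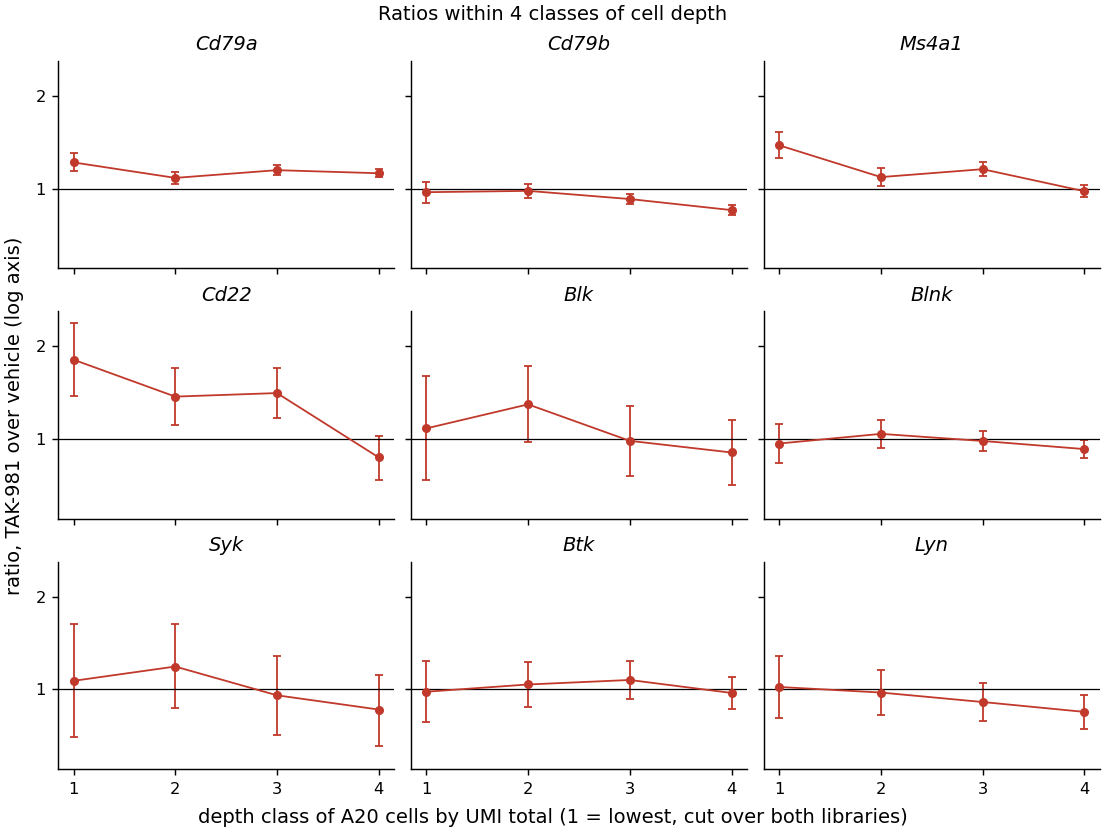
Ratio of UMIs per 10000, TAK-981 over vehicle (log axis), for each of the 9 genes within 4 classes of A20 cells by UMI total, cut over both libraries. Points are ratios with 95% counting intervals, and Cd22 goes from 1.81 in the shallowest class to 0.871 in the deepest.

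Among the kinases, the ratios of all 4 had intervals that included 1. Lyn (ENSMUSG00000042228), the Src-family kinase that starts both the activating and the inhibitory arm, stood at 0.324 UMIs per 10000 in TAK-981 and 0.340 in vehicle A20 cells, a ratio of 0.953 (0.884 to 1.03). Its thinned shares were 11.8% and 12.04%, against 0 of 44 TAK-981 and 1 of 60 vehicle T cells. Blk (ENSMUSG00000014453), the B-lineage Src-family kinase, stood at 0.112 in TAK-981 and 0.0996 in vehicle cells, a ratio of 1.13 (0.987 to 1.29). Blk UMIs sat in few cells: 57.4% with TAK-981 and 56.4% with vehicle came from the richest 5%. Btk (ENSMUSG00000031264), the kinase blocked by ibrutinib, stood at 0.354 in TAK-981 and 0.341 in vehicle cells, a ratio of 1.04 (0.966 to 1.12), and was seen in 14.3% and 13.04% of thinned cells, against 0 of 44 TAK-981 and 1 of 60 vehicle T cells.

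Syk (ENSMUSG00000021457), the kinase that docks on the phosphorylated CD79 tails, was the least abundant of the 9. It stood at 0.0907 UMIs per 10000 in TAK-981 and 0.0850 in vehicle A20 cells, a ratio of 1.07 (0.920 to 1.24). Vehicle T cells held 0.0696 from 6 UMIs in 4 of 60 cells, and 13 of the 60 held at least 2 gate UMIs. The vehicle A20 level was not detectably above that of T cells, a class that should hold little of it. In the TAK-981 library none of 44 T cells held a Syk UMI, with the same floor, which at their depth does not show that they lack the transcript.

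Blnk (ENSMUSG00000061132), the adaptor that joins SYK to BTK, stood at 0.996 UMIs per 10000 in TAK-981 and 1.03 in vehicle A20 cells, a ratio of 0.967 (0.926 to 1.01). Thinned shares were 30.9% and 31.4%, against 6.82% and 5% of T cells, while unthinned shares were 67.4% and 75.9%. The 9 genes had the same order of level in both libraries: Cd79a, Cd79b, Ms4a1, Blnk, Btk, Lyn, Cd22, Blk and Syk. UMIs count transcripts at 1 end and were not divided by length, and capture may still differ between genes. The neighbours Btk and Lyn, and Blk and Syk, had overlapping intervals in each library.

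Promoter windows from RefSeq on build GRCm38.p6, the 250 bases before a gene's start, were at hand for 5 of the 9 genes in 6 windows (Blnk, Btk, Cd22, Cd79a and 2 for Syk). They were searched on both strands for the octamer ATGCAAAT bound by OCT factors, for the EBF palindrome (TCCC and GGGA with 2 bases between them) and for the interferon-stimulated response element (GAAA and GAAA with 2 bases between them). The octamer was found in 1 window, that of Blnk, where it reads ATTTGCAT on the gene's strand and begins 130 bases before the start. The EBF palindrome was found in 1 window, that of Cd22, beginning 49 bases before the start. Of 32851 mouse windows of this length, 1.601% held the octamer, 0.779% the EBF palindrome and 2.98% the interferon element, which none of the 6 windows held. The 2 windows with a match are shown 5′ to 3′ on the minus strand, Blnk at chr19:40994222-40994471 and Cd22 at chr7:30879029-30879278, with the match in capitals.
Blnk: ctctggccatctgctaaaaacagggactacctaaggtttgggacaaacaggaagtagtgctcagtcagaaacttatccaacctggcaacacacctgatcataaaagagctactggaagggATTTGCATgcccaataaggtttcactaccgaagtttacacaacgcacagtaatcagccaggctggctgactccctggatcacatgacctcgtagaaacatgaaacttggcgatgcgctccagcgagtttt
Cd22: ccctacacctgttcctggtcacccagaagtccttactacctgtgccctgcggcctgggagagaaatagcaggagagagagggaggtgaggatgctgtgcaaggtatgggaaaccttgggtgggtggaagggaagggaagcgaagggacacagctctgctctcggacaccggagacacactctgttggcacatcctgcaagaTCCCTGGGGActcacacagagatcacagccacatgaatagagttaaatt

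The transcripts of the regulators whose letters these are were then read in the same cells, a pair chosen after the windows had been searched. Of thinned A20 cells, 27.1% with TAK-981 and 23.3% with vehicle held a UMI of Ebf1, the EBF-family factor of B cells. Cd22 and Ebf1 were seen together in 1.74 times (1.41 to 2.11) as many TAK-981 cells, and in 1.63 times (1.25 to 2.099) as many vehicle cells, as the product of their shares gives. Among genes whose windows were not at hand, the same quotient for Ebf1 was 1.56 and 1.61 for Blk, and 1.25 and 1.28 for Ms4a1. It was 1.16 and 1.16 for Cd79b, and 1.19 and 1.15 for Lyn. The searched genes without the palindrome gave 1.25 and 1.39 (Syk), 1.27 and 1.22 (Btk), 1.09 and 1.10 (Cd79a), and 1.07 and 0.987 (Blnk). Blnk, whose window holds the octamer, was seen with the OCT-family gene Pou2f2 in 0.991 times (0.816 to 1.19) and 0.986 times (0.787 to 1.22) the product. Cd22, with no octamer in its window, gave 1.64 and 2.02 with Pou2f2. A match in these letters describes the window and says nothing of binding.

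Co-expression was read in cells thinned to 4000 UMIs, so that depth is equal across cells. The median A20 cell showed 3 of the 9 genes in each library. The mean was 2.67 genes in TAK-981 and 2.56 in vehicle cells, and 8.01% and 6.22% of cells showed 5 or more. No member was seen in 4.78% of TAK-981 and 3.96% of vehicle cells. Cd79a and Cd79b were seen together in 52.8% of TAK-981 and 52.3% of vehicle cells, or 83.2% and 88.4% before thinning.

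Of the 36 pairs, 31 had at least 10 cells expected in both libraries from the product of the single shares. Of these, 26 with TAK-981 and 25 with vehicle were seen together more often than the product. The quotient reached 1.2 in both libraries for 5 pairs. They were Ms4a1 with Cd22 (1.35 and 1.40), Cd79b with Cd22 (1.24 and 1.22), Ms4a1 with Blk (1.35 and 1.25), Cd22 with Btk (1.34 and 1.38), and Blk with Lyn (1.41 and 1.64). Among cells with an Ms4a1 UMI, 14.2% of TAK-981 and 9.405% of vehicle cells also showed Cd22, against 6.62% and 4.53% of cells without one. The receptor chains and Ms4a1 were common enough that their quotients stayed near 1, at 1.09 and 1.06 for Cd79a with Cd79b, but their counting intervals lay above 1 in both libraries. With the product held fixed, intervals did so for 5 pairs: the 3 among Cd79a, Cd79b and Ms4a1, and Cd22 with Cd79b and with Ms4a1. They lay below 1 in both libraries for 0 pairs. Blk with Lyn rested on 15 TAK-981 and 20 vehicle cells, with intervals of 0.789 to 2.32 and 1.01 to 2.53. The interval of Cd22 with Btk included 1 in both libraries, and that of Ms4a1 with Blk did so in vehicle cells. No like count over pairs of other genes is given beside these counts of pairs. With a gate of at least 10 UMIs, or with only cells of 10000 to 20000 UMIs, 3 pairs in place of 5 reached 1.2.

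**Figure D3:**
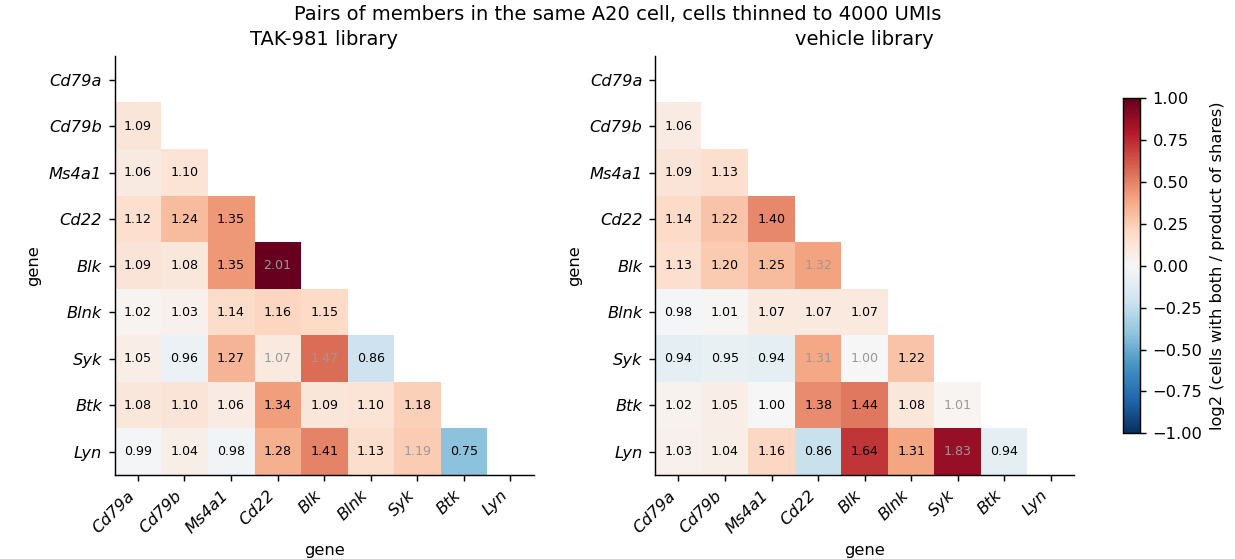
Share of A20 cells with both genes of a pair over the product of the single shares, in the TAK-981 library (left) and the vehicle library (right), cells thinned to 4000 UMIs; colour is the log2 of the printed quotient and grey figures mark pairs with under 10 expected cells. Cd22 with Ms4a1 stands at 1.35 and 1.40, and Blk with Lyn at 1.41 (0.789 to 2.32) and 1.64 (1.01 to 2.53).

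Over the cells of a library, Pearson's r of thinned UMIs was 0.38 in TAK-981 and 0.34 in vehicle cells for Cd79a with Cd79b, 0.22 and 0.35 for Cd79a with Ms4a1, and 0.30 and 0.33 for Cd79b with Ms4a1 (1884 and 2300 cells). The cells of a library share its preparation and depth, so these are descriptions. The sum of the 8 genes other than Cd79a was then set against each of 2013 other genes seen in at least 20% of thinned cells of both libraries. The most alike were Cd74, the invariant chain of MHC class II (r = 0.43 and 0.46), ENSMUSG00000093861, a kappa light-chain variable segment (0.40 and 0.38), Atp1b3, a sodium pump subunit (0.36 and 0.32), and the MHC class II chains H2-Aa (0.33 and 0.32) and H2-Ab1 (0.31 and 0.33). The median r over the 2013 genes was 0.01 with TAK-981 and 0.02 with vehicle. Ebf1 was at rank 7.

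The members' levels varied with the cycle state of the cell in the same direction in each library. Thinned UMIs of 11 G2/M genes were summed, and cells with more than 7 (425 TAK-981 and 464 vehicle cells) were set against cells with 0 (495 and 568). The levels of all 9 genes were lower in the G2/M-high cells of both libraries. The share of all genes lower in these cells is not given here, so the count is not shown to be particular to the 9. Cd22 had the lowest quotient, high over low, at 0.38 (0.23 to 0.61) in TAK-981 and 0.38 (0.22 to 0.63) in vehicle cells. Cd79a gave 0.70 and 0.77, Cd79b 0.68 and 0.81, Lyn 0.62 and 0.67, and Btk 0.69 and 0.94, where the vehicle interval of Btk, 0.68 to 1.29, included 1. The intervals of Blk and Syk included 1 in both libraries. Median depth was 16309 UMIs in high and 14743 in low TAK-981 cells, and 22086 and 19223 in vehicle cells. The gate genes moved likewise, with a median of 7 thinned gate UMIs in high and 10 in low TAK-981 cells, and 7 and 9 in vehicle cells. The part of either was not tested. The cut is a point on a range: 233 TAK-981 and 331 vehicle cells lay within 1 UMI of the upper cut.

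Interferon-response genes were read from a list of 14. Of the 13 tested, 12 were called higher in TAK-981 A20 cells, beside the 4.74% of all genes. Their median log2 ratio was 3.32. Cells with more than 2 thinned UMIs of that list numbered 555 with TAK-981 and 262 with vehicle, and cells with 0 numbered 526 and 944. Within the TAK-981 library all 9 genes had higher levels in the interferon-high cells, though the intervals of Cd22, Blk and Syk included 1. The share of all genes higher in these cells is not given here, so the count is not shown to be particular to the 9. The quotient, high over low, was 1.89 (1.66 to 2.14) for Ms4a1, 1.64 (1.35 to 2.01) for Blnk, 1.41 (1.28 to 1.56) for Cd79b and 1.24 (1.14 to 1.35) for Cd79a. In the vehicle library the same genes gave 1.48, 1.37, 1.19 and 1.13, with intervals above 1. Btk gave 1.55 (1.12 to 2.16) in TAK-981 and 0.935 (0.622 to 1.37) in vehicle cells. Cd22 gave 1.39 (0.972 to 2.02) in TAK-981 and 0.45 (0.20 to 0.90) in vehicle cells, the last from only 9 UMIs in high cells, and for neither gene was the difference between libraries tested. Within 1 UMI of the upper cut lay 989 TAK-981 and 1253 vehicle cells, so the classes are ranges. High cells of the TAK-981 library were also shallower (a median of 13776 UMIs against 15217) and held more thinned gate UMIs (a median of 9 against 7).

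Beyond the 9 genes, a list of 35 other genes of the pathway had 33 with at least 50 UMIs, of which 2 were called higher and 0 lower in TAK-981 A20 cells, beside the 4.74% and 1.12% of all genes. The median log2 ratio of the list was 0.04. The highest were Cr2, a complement receptor of B cells (ratio 1.66, from 213 and 206 UMIs), Bank1, a B cell scaffold protein (1.504), Vav2, an exchange factor (1.33), and Malt1, a paracaspase of the NF-kB branch (1.21). Bank1 stood at the threshold, and 1 or 0 genes were called under 8 of 11 alternatives. The lowest were Cd72, an inhibitory co-receptor (0.720), Pik3ap1, an adaptor for PI3-kinase (0.886), Cd81 (0.886), a tetraspanin, and Nfatc1 (0.887), a transcription factor driven by calcium.

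Of 15 B cell transcription factors, 3 were called higher and 0 lower, beside the 4.74% and 1.12% of all genes, with a median log2 ratio of 0.15. Prdm1, the plasma cell factor, had a ratio of 1.93 from only 36 and 30 UMIs. Pou2f2 stood at 0.607 UMIs per 10000 in TAK-981 and 0.356 in vehicle cells, a ratio of 1.70, and Irf8 at 4.13 and 2.62, a ratio of 1.57. Pax5, the factor that maintains B cell identity, had a ratio of 1.42 and was not called. The lowest were Pou2af1, the co-activator of the OCT factors (0.816), Foxo1 (0.820), Spib (0.916) and Spi1 (0.949).

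Genes that receptor signalling is known to induce had the balance the other way. Of 13 in the list, 9 had at least 50 UMIs, and of these 0 were called higher and 3 lower in TAK-981 A20 cells, beside the 1.12% of all genes called lower, with a median log2 ratio of -0.36. Fos stood at 0.615 UMIs per 10000 in TAK-981 and 1.46 in vehicle cells, a ratio of 0.421 (0.401 to 0.442). Nr4a1 (0.599) and Egr2 (0.595, from 34 and 92 UMIs) were the others called, and Egr1 had a ratio of 0.719. The highest were Nfkbia (1.04), Myc (0.976), Cd69 (0.827) and Cd83 (0.824). Receptor signalling itself was not measured, and these genes are not induced by the receptor alone. The libraries also differed in barcodes at 10% or more mitochondrial UMIs (15.7% with TAK-981, 4.81% with vehicle). The part of either in these ratios was not tested. 

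**Figure D4:**
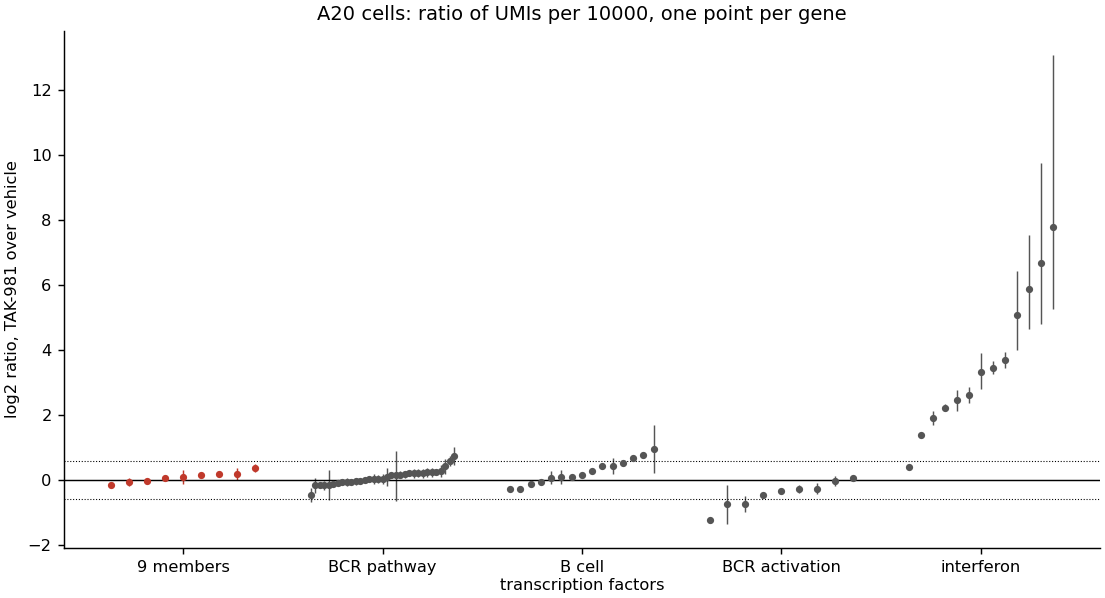
Log2 ratio of UMIs per 10000 in A20 cells, TAK-981 over vehicle, 1 point per gene with its 95% counting interval, for the 9 genes and the lists of pathway genes, B cell transcription factors, receptor-induced genes and interferon-response genes; dotted lines mark 1.5-fold. The 9 genes lie within the lines, 3 receptor-induced genes lie below them and 12 interferon genes above.

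Syk and Lyn were also measured in myeloid cells, taken as cells with at least 5 Lyz2 UMIs: 39 in the TAK-981 library with a median of 8287 UMIs, and 44 in the vehicle library with a median of 10636.5 UMIs. Both kinases were far more abundant there than in A20 cells: the level of Lyn was 16.4 times the A20 level in the TAK-981 and 9.05 times in the vehicle library, and that of Syk 10.03 and 14.99 times. A UMI of both kinases was found in 23 (59.0%) TAK-981 and 34 (77.3%) vehicle cells. Cd14 was seen in 92.3% of TAK-981 and 93.2% of vehicle cells. Cd3d and Cd3g were at 0, and Cd3e gave 0 and 1 UMI.

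Lyn stood at 5.32 UMIs per 10000 in TAK-981 and 3.07 in vehicle myeloid cells, from 193 and 164 UMIs, a ratio of 1.73 (1.40 to 2.15), which was called. In this class 33.5% of the 2361 genes with at least 50 UMIs were called, 17.1% higher and 16.4% lower, so a call here is common. It was seen in 38 of 39 TAK-981 and 41 of 44 vehicle cells. Single cells ran from 0 to 15.2 UMIs per 10000 with a median of 4.596 in the TAK-981 library, and from 0 to 12.5 with a median of 2.89 in the vehicle library, so the cells overlapped. With every cell weighted alike the log2 ratio was 0.52, and with every cell thinned to 4000 UMIs the ratio was 1.33 (0.949 to 1.86), and neither passes the call.

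Syk ran the other way in myeloid cells, at 0.909 UMIs per 10000 in TAK-981 and 1.27 in vehicle cells, from only 33 and 68 UMIs. The ratio of 0.714 (0.456 to 1.10) included 1 and was not called. A Syk UMI was found in 24 of 39 (61.5%) TAK-981 and 35 of 44 (79.5%) vehicle cells, with a median cell of 0.935 and 1.25 UMIs per 10000. After 1 random thinning, 9 and 27 UMIs remained, with a ratio of 0.38 (0.16 to 0.82), or -1.41 on the log2 scale. These are fewer together than the 50 UMIs asked of a tested gene, so this ratio is not counted as a call. No share of genes called in thinned myeloid cells is given beside it. Weighting cells alike without thinning gave -0.57.

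**Figure D5:**
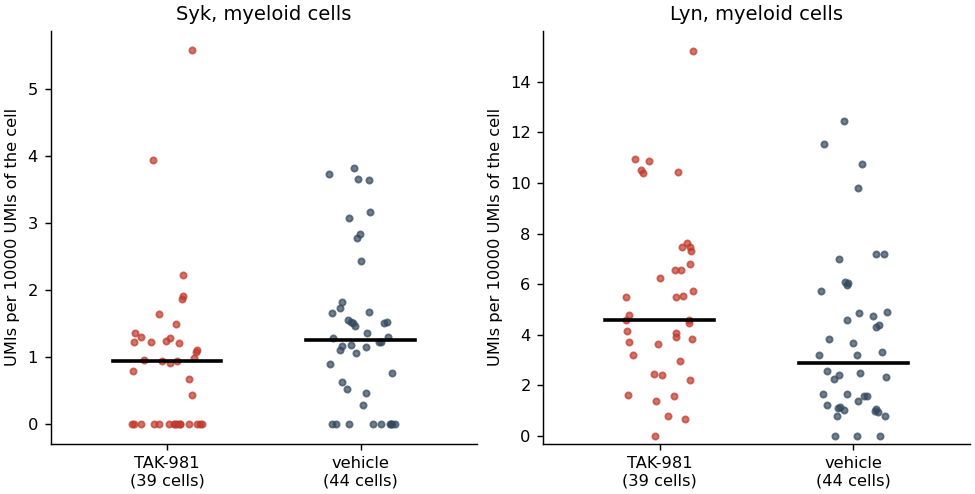
Syk (left) and Lyn (right) in each myeloid cell, in UMIs per 10000 UMIs of the cell, for 39 TAK-981 and 44 vehicle cells; bars are medians and points are spread sideways for sight. The Lyn medians are 4.596 and 2.89 and the Syk medians 0.935 and 1.25, and cells of the libraries overlap for both.

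Receptors and kinases that work with SYK and LYN in myeloid cells were read from a list of 18. Of these, 13 had at least 50 UMIs, and 3 were called higher and 2 lower in TAK-981 cells, near the 17.1% and 16.4% of all genes in this class. Fcgr1, the high-affinity Fc receptor for IgG, stood at 4.82 UMIs per 10000 in TAK-981 and 0.824 in vehicle cells, a ratio of 5.85 (4.18 to 8.34). Pirb, an inhibitory receptor, had a ratio of 1.56 with an interval of 0.942 to 2.59. Sirpa (0.538) and Fcgr2b (0.604), both inhibitory receptors, were lower. Fcer1g, the chain that carries SYK's docking site in Fc receptors, had 1.23, and Clec4d and Fgr had 0.801 and 0.843. Other transcripts of the class also differed between libraries. H2-Aa was seen in 35.9% of TAK-981 and 84.1% of vehicle myeloid cells, at 23.1 and 79.4 UMIs per 10000. All 14 interferon genes were called higher in the TAK-981 cells, beside the 17.1% of all genes. Types of myeloid cell were not separated, so makeup and expression cannot be told apart here. The part of either in the Lyn and Syk ratios was not tested.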

How the data were processed

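The authors deposited raw UMI counts, whole numbers with 1 row for each gene and column for each barcode, per the file headers, for 1 TAK-981 and 1 vehicle library. The submitters' processing notes name Cell Ranger 2.1.1 and Seurat 2 without their roles. Neither build nor annotation is named there, so both count as not given in the sources used here. The lowest UMI total of a barcode was 4670 with TAK-981 and 5965 with vehicle, so the deposited barcodes had passed a selection. Totals were 37470319 and 57471750 UMIs.

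UMIs were summed over the A20 or myeloid cells of a library and divided by all UMIs of those cells (Python 3.11.15, numpy 2.4.6, scipy 1.17.1, pandas 2.3.3, matplotlib 3.10.9). Ratios carry exact conditional binomial intervals and shares exact (Clopper-Pearson) intervals at 95%, and a count of 0 is given with a limit of 3 counts. For genes seen together, the interval of the joint share was divided by the product of the single shares. That product was held fixed, so the interval of the quotient is not exact. Counting error is all these intervals cover, and mice or preparations may differ by more. For shares and pairs every cell was cut at random, without replacement, to 4000 UMIs, which left out no cell. No doublet caller was run: the gate removes cells with Cd3 or Lyz2 UMIs, and an alternative left out the 5% deepest cells. T cells had at least 2 Cd3 UMIs, and 9 of 44 in the TAK-981 and 13 of 60 in the vehicle library held at least 2 gate UMIs. The code was tested on simulated data.

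The 9 members and all lists were chosen with earlier results of these data known. All members are named, and from each list the 4 highest and 4 lowest ratios among genes with at least 50 UMIs. Some genes that this rule picks are not reported here. The nearest genes are the 5 with the highest lower r of the 2 libraries. Alternatives changed the scaling, depth, gate, mitochondrial limit, cells kept and weighting.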

Additional observations from a re-analysis of the deposited data

Results flagged for a closer look

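Syk and Lyn each stood on opposite sides of 1 in the classes in which they were read. For Lyn the log2 ratio, TAK-981 over vehicle, was 0.79 in myeloid and -0.07 in A20 cells. For Syk it was -0.49 in myeloid and 0.09 in A20 cells. The difference between the classes was not tested, since each treatment has 1 library, and the intervals of Syk in both classes and of Lyn in A20 cells included 1.

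Barcodes left out of the A20 class for a mitochondrial share of 10% or more but otherwise within its gate numbered 357 with TAK-981 and 114 with vehicle. In them Blk had a ratio of 2.64 (1.30 to 6.05), from 59 UMIs with TAK-981 and only 9 with vehicle. Cd22 had 1.03 (0.722 to 1.48) and Lyn 0.667 (0.453 to 0.993) in the same barcodes.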

How the results depend on the processing

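No paired analysis was possible because each treatment has 1 library, and for the same reason no replicate could be left out. Of 12 alternatives for the count of members called in A20 cells, 9 gave 0. Thinning to 4000 UMIs after the gate, gating on thinned counts and weighting every cell alike gave 1, which was Cd22 each time. The pairs at 1.2 or more in both libraries numbered 5 as reported, 3 with a gate of 10 UMIs and with cells of 10000 to 20000 UMIs, and 4 with a mitochondrial limit of 5%. The cause was not tested. In myeloid cells, thinning gave log2 ratios of -1.41 for Syk, beside -0.49, and 0.41 for Lyn, beside 0.79. The other 7 alternatives gave -0.63 to -0.44 and 0.52 to 0.84. Of 99 log2 ratios of members under alternatives, 80 stayed within the counting interval of the value reported and 2 changed sign (1 each of Blnk and Syk), within -0.21 to 0.74. Of 72 differences in thinned share, in 65 both shares stayed within their counting intervals, and 4 changed sign, 3 of them (Cd79b, Blnk and Lyn) with cells of 10000 to 20000 UMIs and 1 (Blk, -0.11 points) with the limit of 5%. Genes called overall came to 31.3% with no filter and 3.22% with at least 200 UMIs, beside 5.86%. Depth limits Syk and Blk in A20 cells and Syk in myeloid cells most.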

Other observations

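At the other end of the ranking by likeness, 17 of the 20 genes with the lowest r with the summed members encoded ribosomal proteins, of 94 such genes among the 2013 ranked. Rplp1, for example, had r of -0.25 with TAK-981 and -0.20 with vehicle.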
